A study of Mus musculus with 35 samples.

Results

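Hyperplastic sympathetic ganglia taken at day 14 of life were compared with those taken at day 0 in TH-MYCN mice. The mice were bred to homozygosity for a human MYCN transgene that is driven by the tyrosine hydroxylase promoter, and every group described here, the day 0 controls included, carried it. Ganglia of wild-type mice were not analysed here, so changes of ordinary postnatal development and changes of the hyperplasia cannot be told apart. The members are the 5 day 0 and 2 day 14 arrays of the ganglia table, 7 of the 9 ganglia and 7 of the 35 arrays in the series, chosen by the labelled day. The 2 day 7 ganglia and 2 small tumors of older mice share the same table, and they entered the fit only for its estimate of the spread. Ganglia are labelled as containing foci of hyperplastic neuroblasts, and total RNA came from frozen sections, so each array can mix neuroblasts, neurons, glia, vessels, connective tissue and what adheres to them. In such bulk samples fewer cells of a type and less RNA per cell cannot be told apart.

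Sympathetic ganglia form from neural crest cells that take on a noradrenergic identity under transcription factors such as Hand2 and Gata3. In the first weeks after birth sympathetic neuroblasts leave the cell cycle, extend axons, form synapses and are wrapped by satellite glia. In TH-MYCN mice clusters of neuroblasts persist at this stage, and they are the lesions from which neuroblastoma arises.

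Expression was read on single-colour oligonucleotide arrays, and a value here is log2 of the quantile-normalized intensity of 1 probe, on which levels of different genes are not comparable. The lowest values were raised to a floor of 9.78. Differences were tested with limma over all 12688 probes, with Benjamini-Hochberg adjustment, and a gene is said to have risen or fallen only at an adjusted p under 0.05. Summed levels of a gene list are sums of normalized intensity over its probes, in units of 1000000. The labels name a specimen for each array and say nothing further on animals, so p-values measure the spread between these samples. Before normalization the median intensity of the same probes was 14061 and 16335 on the day 14 arrays and 5526 to 13771 on the day 0 arrays, so every day 14 array was brighter than every day 0 array. The number of arrays, only 2 at day 14, limits the precision of every value.

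Day 0 held 2 series of specimens by their specimen names, replicates 1 and 2 and replicates 3 to 5. Across probes, Pearson's r was 0.952 within the first series, 0.962 to 0.983 within the second and 0.938 to 0.950 between them, against 0.981 for the day 14 pair. Probes are not independent replicates. Day 0 replicate 1 stood apart in genes chosen after their values were seen. Calca, a neuropeptide gene of sensory neurons, read 16.39 there and 9.79 to 12.09 on the other day 0 arrays, and P2rx3, the ATP receptor of pain fibres, read 18.28 against 13.11 to 15.39. Hoxb4, Hoxb5 and Hoxb6, which mark position along the body axis, read 18.09, 16.79 and 17.48 in that replicate. On the other day 0 arrays they read at most 13.72, 12.37 and 12.09, and at day 14 at most 13.49, 12.31 and 11.13. Their part in the results was not tested, and counts are given below with and without the arrays they touch.

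Of the 12688 probes, 1293 (10.2%) passed the test, 706 higher and 587 lower at day 14. Of 7795 named genes, each represented by its brightest probe, 871 (11.2%) passed. Among them 546 rose (7.0%) and 325 fell (4.17%), 347 and 181 of them by at least 2-fold. Counts of list members below are to be read against these shares. The median over all named genes was 0.05. With no scaling between arrays the median over named genes moved to 0.79 and the split to 812 higher and 15 lower, so a fall below means a fall relative to the other probes of an array. With each unnormalized array centred on its median, 401 rose and 289 fell. The day 7 mean lay between the day 0 and day 14 means for 485 of the 546 genes that rose and 279 of the 325 that fell, given as a description. Against day 0 replicates 1 and 2 alone 863 named genes passed (11.1%), and against replicates 3 to 5 alone 2333 passed (29.9%). Without day 14 replicate 1 or 2, where the spread of the remaining day 14 array is assumed to equal that of the other groups, 290 and 110 passed. Without day 0 replicate 1 the number was 1325, and without replicate 3 it was 504.

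**Figure D1:**
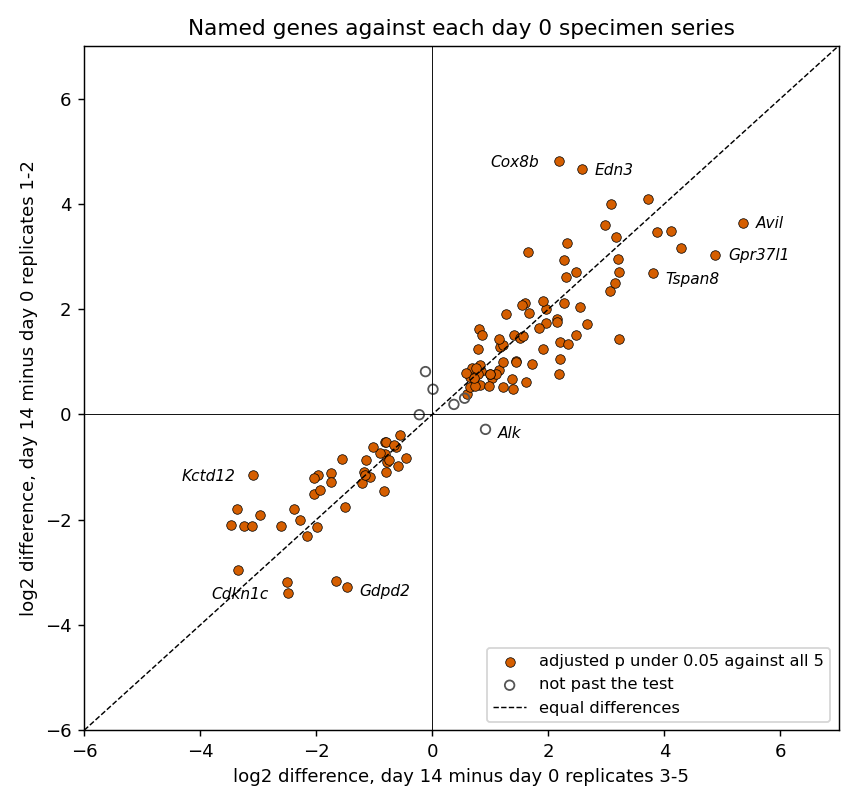
Log2 difference of day 14 minus the mean of day 0 replicates 3 to 5 (horizontal) against day 14 minus the mean of day 0 replicates 1 and 2 (vertical) for the 126 genes chosen by the naming rule, with the same 2 day 14 arrays on both axes. All 120 genes that passed lie in the same sign on both axes, and Cox8b, Edn3, Kctd12, Gpr37l1 and Gdpd2 lie farthest from the dashed line of equal differences.

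Crabp1, which binds retinoic acid in the cytoplasm, had log2 intensities of 13.76, 13.63, 14.16, 13.79 and 14.24 at day 0, 15.45 and 16.89 at day 7, and 17.82 and 17.73 at day 14. It rose 14.5-fold (log2 difference 3.86, SE 0.33, adjusted p = 0.00027), with the day 7 arrays above every day 0 array and below both day 14 arrays. Tesc, encoding the calcium-binding protein tescalcin, read 11.61, 12.04, 12.77, 12.47 and 13.00 at day 0 and 15.92 and 15.75 at day 14 (log2 difference 3.45, SE 0.35, adjusted p = 0.00027). Gpr37l1, an orphan receptor of satellite glia and astrocytes, read 12.70, 12.98, 10.67, 10.99 and 11.32 at day 0 and 15.93 and 15.82 at day 14 (log2 difference 4.14, SE 0.55, adjusted p = 0.0010). Both day 14 values of Gpr37l1 were alike, and the first day 0 series read higher than the second. Crispld2, a secreted cysteine-rich protein, rose by 3.25 (adjusted p = 0.00027) and Gpld1, a phospholipase that releases GPI-anchored proteins, by 3.87 (adjusted p = 0.00076). Fbxo2, which targets glycoproteins of neurons for degradation, read 18.24, 16.43, 16.94, 16.46 and 17.06 at day 0 and 20.06 and 20.02 at day 14 (log2 difference 3.01, SE 0.38, adjusted p = 0.00077). The 15 highest and 15 lowest genes were taken only from those without overlap between the groups. The lack of overlap in them follows from that choice, and 30.0% of all named genes had it.

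Among the 15 highest were also genes with an uneven day 0 group. Avil, encoding the actin-binding protein advillin of sensory neurons, had the largest difference and read 15.71, 11.89, 11.87, 12.19 and 12.22 at day 0, 15.15 and 14.67 at day 7, and 17.19 and 17.70 at day 14 (log2 difference 4.67, SE 0.81, adjusted p = 0.0046). Day 0 replicate 1 was nearer to the day 14 arrays than to the rest of its group, and the adjusted p was 0.097 without day 14 replicate 2. Cckar, the cholecystokinin A receptor, read 16.78, 10.91, 12.85, 12.46 and 12.84 at day 0 and 17.18 and 16.83 at day 14 (log2 difference 3.83, SE 1.08, adjusted p = 0.042), and the tetraspanin Tspan8 read 19.62, 15.28, 16.21, 16.36 and 16.43 at day 0 and 20.25 and 20.03 at day 14 (log2 difference 3.36, SE 0.83, adjusted p = 0.025). In both genes day 0 replicate 1 lay below the day 14 arrays by less than it lay above the other 4 day 0 arrays. Of 20 sensory neuron markers 7 had a named probe, and Avil was the only one of them that passed. The list was chosen after values were seen. Its summed normalized intensity, with Avil itself included, was 0.623 units in day 0 replicate 1. It was 0.0584 to 0.0723 units in the other day 0 arrays and 0.215 and 0.295 units at day 14. The other markers gave log2 differences from −1.17 (P2rx3) to 0.94 (Ntrk2), so the sum at day 14 does not show a rise of markers other than Avil. The part of sensory neurons in the value of Avil was not tested. Edn3, the peptide endothelin 3 that acts on neural crest cells, read 11.69, 12.70, 14.27, 14.52 and 14.04 at day 0 and 16.87 and 16.84 at day 14 (log2 difference 3.41, SE 0.61, adjusted p = 0.0052), and here it was the first day 0 series that read low. Htra1, a secreted serine protease, rose by 3.10 (adjusted p = 0.0032), and Coq8a, a protein of coenzyme Q synthesis, by 2.77 (adjusted p = 0.0035). Cckar lost its call without day 0 replicate 2, 3, 4 or 5, Tspan8 without replicate 3, and Cox8b, described below with the fat genes, without replicate 1, 2 or 5. Of the 15 highest, 11 passed without day 14 replicate 1 and 7 without replicate 2, and the same 7 passed both times: Crabp1, Crispld2, Fbxo2, Gpld1, Gpr37l1, Hr and Tesc.

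The genes that fell most included a growth inhibitor, matrix genes and neuronal membrane proteins. Plppr1, a membrane protein of growing neurites, read 13.26, 13.34, 13.63, 13.61 and 13.83 at day 0, 11.89 and 10.00 at day 7, and 10.41 and 10.27 at day 14. It fell 9.16-fold (log2 difference −3.19, SE 0.46, adjusted p = 0.0016), with 1 day 7 array at the day 14 level and the other between the groups. Kcnj11, the pore subunit of ATP-sensitive potassium channels, read 14.76, 13.38, 13.41, 12.78 and 13.95 at day 0 and 10.78 and 10.97 at day 14 (log2 difference −2.78, SE 0.44, adjusted p = 0.0025). Mpped1, a metallophosphoesterase-domain protein of brain, read 15.19, 15.57, 15.14, 15.09 and 15.47 at day 0 and 13.18 and 12.95 at day 14 (log2 difference −2.23, SE 0.22, adjusted p = 0.00027). These genes, too, were admitted only without overlap between the groups. Fbn2, the fibrillin of fetal microfibrils, fell by 2.17 (adjusted p = 0.00080) and Grem1, a secreted antagonist of bone morphogenetic proteins, by 2.71 (adjusted p = 0.0048). Cacng3, an auxiliary subunit of AMPA receptors, fell by 2.55, the small leucine-rich proteoglycan gene Aspn by 2.79, the zinc-finger gene St18 by 2.42, the GABA-B receptor auxiliary gene Kctd12 by 2.31, Ly6h by 2.26 and Gdpd2 by 2.20.

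For Thumpd1, an adaptor of tRNA acetylation, and Tut4, which adds uridines to let-7 precursors, the day 14 arrays differed from each other. Thumpd1 read 14.03, 13.02, 15.19, 14.65 and 14.84 at day 0 and 12.65 and 10.19 at day 14 (log2 difference −2.93, SE 0.78, adjusted p = 0.033). Tut4 read 15.05, 14.07, 15.99, 16.14 and 16.23 at day 0 and 13.86 and 11.65 at day 14 (log2 difference −2.74, SE 0.66, adjusted p = 0.023). In both genes day 14 replicate 2 lay well below replicate 1, and without replicate 2 the adjusted p was 0.43 and 0.36. A second probe of Tut4 gave a log2 difference of −0.91 and did not pass (adjusted p = 0.489). Thumpd1 also lost its call without day 0 replicate 3, 4 or 5, as did St18, and Kctd12 without replicate 3 or 5. Of the 15 lowest, 10 passed without day 14 replicate 1 and 5 without replicate 2, namely Cdkn1c, Fbn2, Kcnj11, Mpped1 and Plppr1.

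Most measured interferon-induced genes rose. Interferons act through cell-surface receptors and switch on antiviral GTPases, oligoadenylate synthetase-like proteins, chemokines and the immunoproteasome. Of 17 measured genes of the list 10 rose and 0 fell, with a median log2 difference of 1.37 against 0.05 over all named genes, of which 7.0% rose. The 6 called members beyond the 4 with the smallest p, like further called members of other lists below, were added after their values were seen. Psmb9, an immunoproteasome subunit, read 12.37, 12.18, 13.05, 12.92 and 13.64 at day 0, 14.21 and 13.90 at day 7, and 15.82 and 15.25 at day 14, a 6.50-fold rise (log2 difference 2.70, SE 0.36, adjusted p = 0.00095). Its partner subunit Psmb10 read 12.57, 13.13, 12.31, 12.52 and 12.20 at day 0, 13.63 and 13.94 at day 7, and 14.84 and 14.94 at day 14 (log2 difference 2.34, SE 0.28, adjusted p = 0.00056). The day 7 arrays of both subunits lay above every day 0 array and below both day 14 arrays. Oasl2, an oligoadenylate synthetase-like protein, read 14.44, 13.42, 14.72, 14.15 and 14.94 at day 0 and 16.96 and 16.78 at day 14 (log2 difference 2.53, SE 0.36, adjusted p = 0.0013). Gbp3, a guanylate-binding GTPase, read 14.65, 13.58, 14.08, 13.69 and 14.09 at day 0 and 16.43 and 16.02 at day 14 (log2 difference 2.21, SE 0.28, adjusted p = 0.00075). The groups of these 4 genes did not overlap, as in 30.0% of all named genes (18.1% with day 14 higher).

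The other members that rose were Ifi27 (log2 difference 2.40, adjusted p = 0.0024), the chemokine Cxcl10 (log2 difference 1.99, adjusted p = 0.0057), the transcription factor Irf1 (log2 difference 1.94, adjusted p = 0.0037), the immunity-related GTPase Igtp (log2 difference 1.80, adjusted p = 0.012), the ubiquitin-like modifier Isg15 (log2 difference 1.37, adjusted p = 0.022) and the membrane protein Ifitm3 (log2 difference 0.87, adjusted p = 0.045). Not every interferon target passed. The transcription factor Irf9 gave 0.20 (adjusted p = 0.66), Mx1 0.09 (adjusted p = 0.94) and Oas2 −0.47 (adjusted p = 0.37). Summed over the list, the level was 0.373 to 0.803 units at day 0, 0.943 to 0.957 units at day 7 and 1.59 to 1.81 units at day 14, without overlap. Against day 0 replicates 1 and 2 alone 8 of the 17 rose (against 6.88% of all named genes) and against replicates 3 to 5 alone 10 rose (against 17.5%). The number was 6 without day 14 replicate 1 and 5 without day 14 replicate 2.

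Promoters are shown for 4 of the 5 interferon-list genes that rose and whose window holds GAAA, any 2 letters and GAAA again, the core of the interferon-stimulated response element. The 4 were picked after their values were seen. They are RefSeq windows of GRCm38.p6 around the gene start, printed 5′ to 3′ on the gene's strand, and capitals mark every match on either strand.
Isg15 (chr4:156200769-156201068, minus strand): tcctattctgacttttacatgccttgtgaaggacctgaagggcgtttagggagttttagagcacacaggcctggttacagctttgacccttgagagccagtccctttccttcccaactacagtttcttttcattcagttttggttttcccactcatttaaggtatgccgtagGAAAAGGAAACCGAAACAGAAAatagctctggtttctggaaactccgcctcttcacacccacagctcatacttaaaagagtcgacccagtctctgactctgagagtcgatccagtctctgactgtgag
Cxcl10 (chr5:92348840-92349139, minus strand): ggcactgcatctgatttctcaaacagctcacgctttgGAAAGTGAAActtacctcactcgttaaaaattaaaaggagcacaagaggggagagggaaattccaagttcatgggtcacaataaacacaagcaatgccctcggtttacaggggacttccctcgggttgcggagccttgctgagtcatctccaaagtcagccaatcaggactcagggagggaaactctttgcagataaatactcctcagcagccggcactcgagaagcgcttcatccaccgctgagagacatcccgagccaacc
Igtp (chr11:58199306-58199605, plus strand): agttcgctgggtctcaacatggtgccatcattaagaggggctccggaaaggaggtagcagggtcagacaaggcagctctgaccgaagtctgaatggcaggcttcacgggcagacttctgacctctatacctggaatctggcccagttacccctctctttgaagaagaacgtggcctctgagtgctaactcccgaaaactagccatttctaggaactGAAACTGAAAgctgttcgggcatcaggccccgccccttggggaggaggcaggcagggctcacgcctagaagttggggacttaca
Gbp3 (chr3:142559794-142560093, plus strand): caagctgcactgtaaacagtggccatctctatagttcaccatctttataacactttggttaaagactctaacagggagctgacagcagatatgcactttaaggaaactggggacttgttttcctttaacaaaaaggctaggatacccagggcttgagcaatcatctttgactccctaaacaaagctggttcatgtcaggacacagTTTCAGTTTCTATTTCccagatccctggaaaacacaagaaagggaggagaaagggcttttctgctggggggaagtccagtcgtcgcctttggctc
In Isg15, 3 overlapping matches formed the marked run, and in Gbp3 2 overlapping matches lay on the opposite strand.

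Of the 10 interferon-list genes that rose, 9 had a promoter window in the RefSeq table. Among these 9, 5 held the GAAA pair on either strand, namely Isg15, Cxcl10, Igtp, Gbp3 and Ifitm3, and 4 did not, namely Oasl2, Irf1, Psmb9 and Psmb10. Of the 4 measured list genes with a window that did not pass, 1 held it (Eif2ak2). The letters occurred in 3.44% of all 32851 promoter windows and in 3.57% of the 6058 measured genes with a window. TTCNNNGAA, the letters of the gamma-activated sequence, occurred in 3 of the 9 (Irf1, Igtp and Ifitm3) and in 8.30% of all windows. They also occurred in 2 of the 4 list genes with a window that did not pass (Isg20 and Eif2ak2). These matches describe the letters and do not show binding.

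The list of MHC and antigen presentation genes shares Psmb9 and Psmb10 with the interferon list. Of 12 measured genes 6 rose and 0 fell (median 0.93). H2-Eb1, an MHC class II chain of antigen-presenting cells, read 15.50, 14.43, 14.99, 14.91 and 15.67 at day 0, 17.13 and 17.52 at day 7, and 17.80 and 17.52 at day 14. It rose 5.91-fold (log2 difference 2.56, SE 0.29, adjusted p = 0.00040), and the day 7 arrays were at nearly the day 14 level. H2-D1, a class I heavy chain whose probe may also read related class I genes, read 12.94, 12.90, 12.67, 13.22 and 12.17 at day 0, 12.80 and 12.42 at day 7, and 14.74 and 14.56 at day 14 (log2 difference 1.87, SE 0.31, adjusted p = 0.0032). For H2-D1 the day 7 arrays stayed within the day 0 range. The class II chaperone gene H2-DMa (log2 difference 0.97, adjusted p = 0.023) and the peptide-trimming protease Erap1 (log2 difference 0.94, adjusted p = 0.031) rose as well, whereas the peptide transporter Tap1 gave 0.92 (adjusted p = 0.41) with 2 day 0 arrays at the floor. The number that rose was 3 without day 14 replicate 2.

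**Figure D2:**
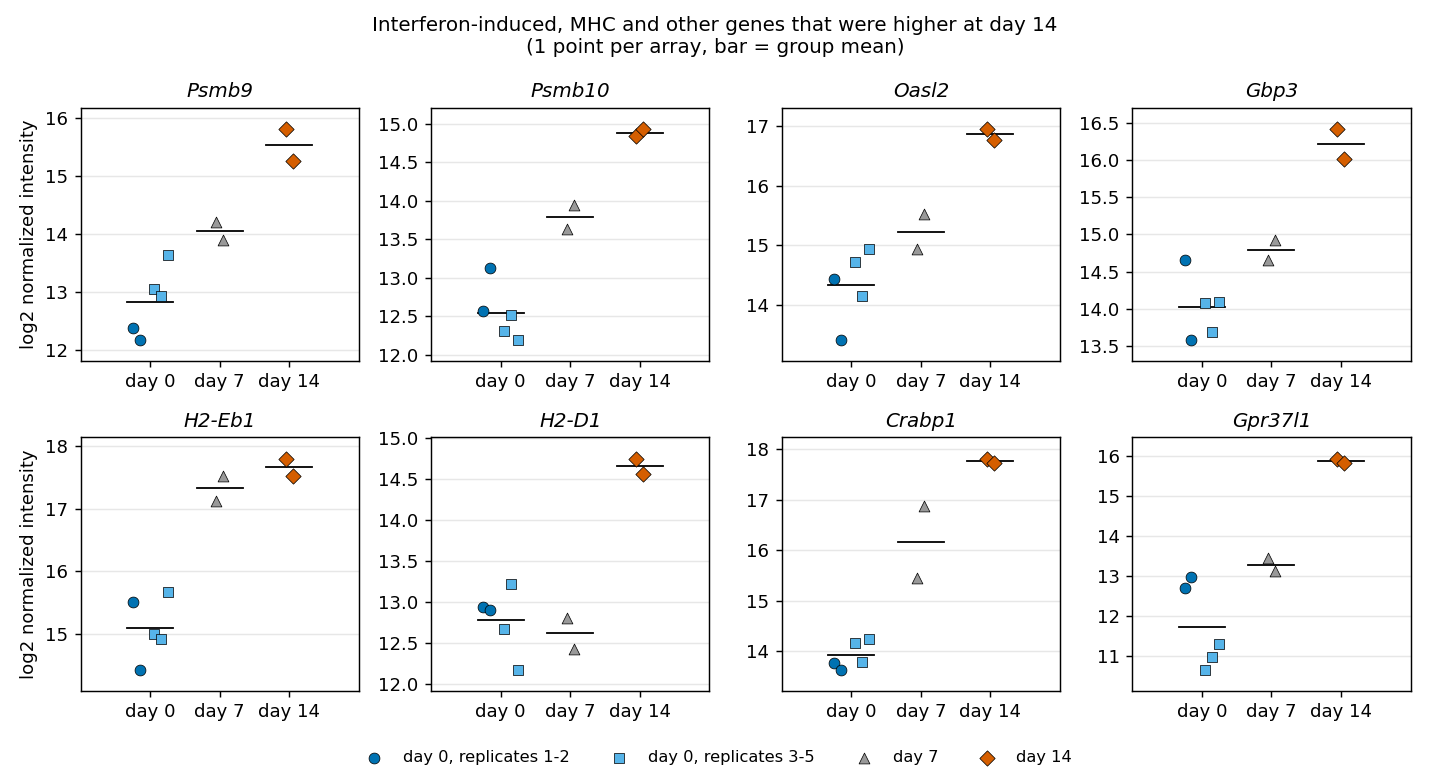
Log2 normalized intensity of 8 genes on each ganglion array, with 1 panel per gene, the day of harvest on the horizontal axis and bars at group means. In every panel both day 14 arrays lie above all 5 day 0 arrays, and in H2-D1 the day 7 arrays lie within the day 0 range.

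Blood-cell markers gave a mixed picture beside this rise. Of 23 measured genes of macrophages and other myeloid cells 3 rose, the lysosomal proteases Lgmn (log2 difference 1.41, adjusted p = 0.0044), Ctsb (log2 difference 0.70, adjusted p = 0.0059) and Ctsd (log2 difference 1.61, adjusted p = 0.029), which other cells also express. The microglial and macrophage genes C1qa, C1qb, C1qc, Tyrobp and Fcer1g lay between −0.06 and 0.17, and Csf1r gave −0.85 (adjusted p = 0.18). Cd14 gave 1.21 (adjusted p = 0.11), Ctsz 0.89 (adjusted p = 0.22), Mrc1 0.67 (adjusted p = 0.27) and S100a9 −1.73 (adjusted p = 0.19). Over the list 14 of 23 differences were positive (median 0.17). The macrophage lectin gene Mgl2, which is not in the list, rose and is given under other observations. The summed myeloid level was 2.49 to 3.53 units at day 0 and 4.74 to 5.20 units at day 14, a sum in which Ctsb and Lgmn take part. The number of myeloid genes that rose was 1 without day 14 replicate 1 or 2. With centred arrays the difference of Ctsb was 0.05. Of 5 lymphocyte genes 1 rose, Rag1, with a day 0 array at the floor (log2 difference 1.76, a lower bound). The lymphocyte sum was 0.153 to 0.179 units at day 0 and 0.127 to 0.128 units at day 14. None of 3 mast cell genes (Kit, Tpsb2 and Gata2) passed limma's test, and 0 had an unadjusted p under 0.05. The part of immune cells in the interferon and MHC values was not tested.

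Noradrenergic genes moved in both directions. Of 33 measured genes of noradrenergic and chromaffin identity 7 rose and 6 fell, with a median of 0.29. Some enzymes of catecholamine handling, such as Dbh and Maob, and the neuropeptide genes Npy and Vip were among those that rose. The enzyme gene Pnmt, the transcription factor gene Gata3 and the granin genes Chga and Chgb were among those that fell. Dbh, which converts dopamine to noradrenaline, read 14.44, 15.57, 14.93, 15.46 and 14.72 at day 0, 16.03 and 15.91 at day 7, and 16.78 and 17.23 at day 14. It rose 3.94-fold (log2 difference 1.98, SE 0.33, adjusted p = 0.0032), with the day 7 arrays between the groups. Maob, a monoamine-degrading enzyme, read 16.62, 17.20, 17.05, 17.23 and 16.79 at day 0 and 18.28 and 18.19 at day 14 (log2 difference 1.26, SE 0.20, adjusted p = 0.0025). Scg5, a chaperone of prohormone convertase in secretory granules, read 18.68, 18.59, 18.63, 18.99 and 18.63 at day 0 and 19.43 and 19.70 at day 14 (log2 difference 0.86, SE 0.18, adjusted p = 0.012). Both day 14 values of each gene exceeded every day 0 value. Npy, the neuropeptide co-released with noradrenaline, read 17.79, 18.91, 19.69, 19.63 and 19.66 at day 0, 21.17 and 21.23 at day 7, and 20.61 and 20.81 at day 14 (log2 difference 1.57, SE 0.41, adjusted p = 0.031), and its day 7 arrays were the highest of the ganglia. Maoa (log2 difference 0.74, adjusted p = 0.038) and the neuropeptide gene Vip (log2 difference 1.72, adjusted p = 0.048) also rose. The day 14 arrays differed in Vip, at 15.65 and 17.58, and the first lay below the highest day 0 array at 15.97.

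Th, the rate-limiting enzyme of catecholamine synthesis, whose promoter also drives the transgene, read 20.82, 21.44, 21.29, 21.27 and 21.42 at day 0, 21.57 and 21.80 at day 7, and 21.90 and 21.92 at day 14. It passed with a small difference (log2 difference 0.66, SE 0.16, adjusted p = 0.022), whose direction depended on the scaling. With each unnormalized array centred on its median the difference was −0.15 (adjusted p = 0.788). Of the remaining enzyme genes Pnmt fell, as given below. The others did not pass, among them Ddc (log2 difference 0.65, adjusted p = 0.22) and Gch1 (log2 difference 0.09, adjusted p = 0.83), nor did the vesicular transporter gene Slc18a2 (log2 difference 0.31, adjusted p = 0.74).

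Among the genes that fell, Gata3, a zinc-finger factor of noradrenergic differentiation, read 17.50, 18.39, 18.63, 18.76 and 18.60 at day 0, 18.23 and 17.57 at day 7, and 17.15 and 17.05 at day 14 (log2 difference −1.28, SE 0.30, adjusted p = 0.019). Chga, a granin of secretory granules, read 20.18, 20.35, 19.89, 19.85 and 19.99 at day 0, 19.98 and 19.84 at day 7, and 19.39 and 19.34 at day 14 (log2 difference −0.69, SE 0.15, adjusted p = 0.013). The day 14 arrays lay below all day 0 arrays in both genes. Pnmt, which makes adrenaline and marks chromaffin cells, fell (log2 difference −1.17, adjusted p = 0.019), as did the granin gene Chgb (log2 difference −0.54, adjusted p = 0.020). Phox2a gave −0.14 (adjusted p = 0.77), Hand2 0.25 (adjusted p = 0.70), Gata2 0.15 (adjusted p = 0.77) and the receptor kinase Alk 0.44 (adjusted p = 0.54). The number that rose was 3 without day 14 replicate 1 and 0 without day 14 replicate 2. The number that fell was 1 without day 14 replicate 1 and 0 without day 14 replicate 2. With centred arrays 3 rose and 5 fell. Against day 0 replicates 1 and 2 alone 8 rose and 2 fell, where 6.88% and 4.19% of all named genes did, and against replicates 3 to 5 alone 9 rose and 7 fell, where 17.5% and 12.4% did.

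Mycn read 16.38, 17.39, 17.76, 18.04 and 17.35 at day 0, 16.49 and 15.96 at day 7, and 15.77 and 15.58 at day 14, a 3.27-fold fall (log2 difference −1.71, SE 0.35, adjusted p = 0.010). It is not known whether the probe reads the human transgene as well. Day 0 replicate 1 was the lowest of its group and lay above both day 14 arrays, and the adjusted p was 0.067 and 0.15 without day 14 replicate 1 and 2.

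**Figure D3:**
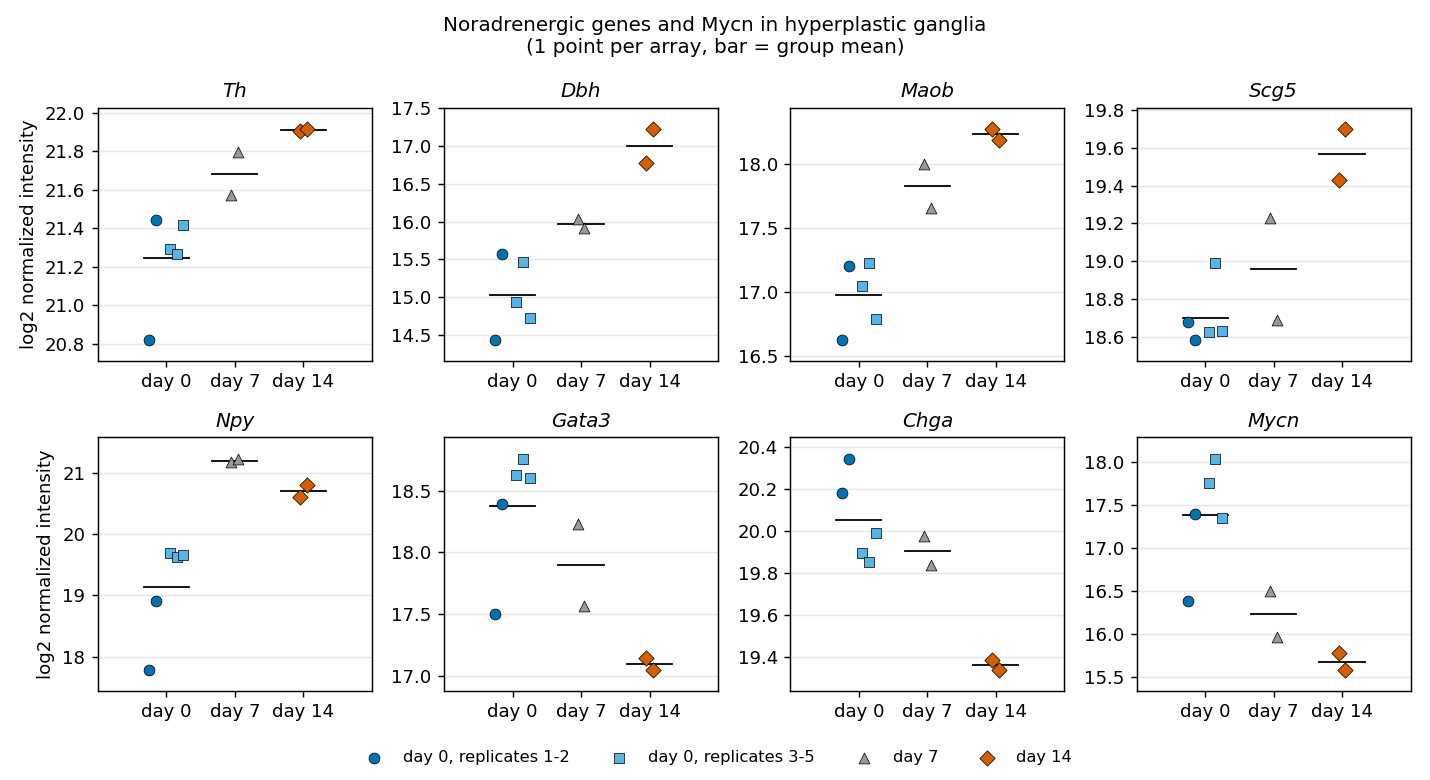
Log2 normalized intensity of 7 noradrenergic genes and Mycn on each ganglion array, with 1 panel per gene and bars at group means. Th, Dbh, Maob, Scg5 and Npy were higher and Gata3, Chga and Mycn lower on both day 14 arrays than on any day 0 array.

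Genes of synaptic vesicles and transmitter release rose in part. Of 21 measured genes 5 rose and 0 fell (median 0.58). Cplx2, a complexin that clamps vesicle fusion, read 16.50, 15.54, 17.71, 17.61 and 17.04 at day 0 and 19.29 and 18.92 at day 14 (log2 difference 2.23, SE 0.45, adjusted p = 0.010). Napb, an adaptor of SNARE disassembly in neurons, read 19.91, 19.50, 19.29, 19.18 and 19.29 at day 0 and 20.62 and 20.77 at day 14 (log2 difference 1.26, SE 0.19, adjusted p = 0.0017). Syngr1 (log2 difference 1.74, adjusted p = 0.012) and Syngr3 (log2 difference 1.13, adjusted p = 0.030), vesicle membrane proteins, and the vesicle GTPase Rab3a (log2 difference 1.10, adjusted p = 0.015) also rose. The calcium sensor Syt1 gave 0.65 (adjusted p = 0.13), Syn1 0.56 (adjusted p = 0.24) and Syt4 −0.08 (adjusted p = 0.78). The summed level was 4.55 to 5.30 units at day 0 and 6.72 to 7.29 units at day 14. Against day 0 replicates 1 and 2 alone 4 genes rose, and against replicates 3 to 5 alone 10 rose, where 6.88% and 17.5% of all named genes did. The number was 1 without day 14 replicate 1 and 0 without day 14 replicate 2.

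Axon and cytoskeleton genes moved in both directions. Of 33 measured genes 4 rose and 5 fell (median 0.09, which was −0.31 with centred arrays). Sncg, a protein of peripheral neurons, read 20.15, 20.18, 19.58, 19.42 and 19.46 at day 0 and 21.27 and 21.54 at day 14 (log2 difference 1.64, SE 0.22, adjusted p = 0.0011). Both day 14 arrays exceeded every day 0 array. Eno2, the neuronal enolase, read 16.20, 14.91, 14.61, 14.56 and 14.49 at day 0 and 16.80 and 16.99 at day 14 (log2 difference 1.94, SE 0.41, adjusted p = 0.012), and Nefh, the heavy neurofilament that appears late in axon growth, rose by 0.98 (adjusted p = 0.029). Elavl3, a neuronal RNA-binding protein, read 19.43, 19.65, 19.67, 19.37 and 19.80 at day 0 and 18.70 and 18.19 at day 14 (log2 difference −1.14, SE 0.17, adjusted p = 0.0020), and Elavl2 (log2 difference −1.13, adjusted p = 0.043), the tubulin Tubb2b (log2 difference −0.92, adjusted p = 0.025), the early intermediate filament Ina (log2 difference −0.88, adjusted p = 0.039) and the growth-cone protein Dpysl3 (log2 difference −0.55, adjusted p = 0.047) fell with it. The growth-cone gene Gap43 gave −0.69 (adjusted p = 0.19), Dcx, a microtubule-binding protein of young neurons, −0.13 (adjusted p = 0.91), and the tubulin gene Tubb3 0.43 (adjusted p = 0.31). Of the other neurofilament genes Nefl gave 0.17 (adjusted p = 0.59) and Nefm 0.10 (adjusted p = 0.87). The number that rose was 1 without day 14 replicate 1 or 2, and the number that fell 1 without day 0 replicate 3, 2 without day 0 replicate 4 or day 14 replicate 1 and 0 without day 14 replicate 2.

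Among 17 ion channels and transmitter receptors 1 rose and 1 fell (median −0.37). Chrna3, the nicotinic subunit that carries fast transmission in autonomic ganglia, read 14.89, 15.77, 15.46, 15.66 and 15.23 at day 0 and 16.38 and 16.85 at day 14 (log2 difference 1.21, SE 0.25, adjusted p = 0.010). The groups of Chrna3 did not overlap, and its adjusted p was 0.21 without day 14 replicate 2.

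Glial genes were higher in part. Of 13 measured genes of Schwann cells and satellite glia 4 rose and 1 fell (median 0.83). Beside Gpr37l1, Fabp7, a fatty-acid-binding protein of satellite glia and glial precursors, read 19.79, 20.12, 20.68, 20.54 and 20.61 at day 0 and 21.45 and 21.47 at day 14 (log2 difference 1.12, SE 0.22, adjusted p = 0.0084). The difference of Fabp7 was 0.50 with centred arrays (adjusted p = 0.39) and 1.28 with no scaling (adjusted p = 0.12). Apoe, the lipid carrier made by satellite glia and macrophages, read 20.06, 19.65, 19.05, 19.61 and 18.04 at day 0, 20.34 and 20.29 at day 7, and 21.33 and 21.40 at day 14 (log2 difference 2.08, SE 0.39, adjusted p = 0.0069), and Cryab, a small heat shock protein, rose (log2 difference 0.83, adjusted p = 0.025). Ednrb, the endothelin receptor of neural crest derivatives, read 15.74, 14.71, 14.92, 15.32 and 15.18 at day 0 and 14.05 and 13.79 at day 14 and fell (log2 difference −1.26, SE 0.29, adjusted p = 0.020), while its ligand gene Edn3 rose as given above. The myelin genes Mbp and Prx did not pass, with Mbp at −0.47 (adjusted p = 0.59) and Prx at −0.69 (adjusted p = 0.56). Day 0 replicate 1 read highest of all ganglia in Prx (17.62). The summed glial level was 2.57 to 4.58 units at day 0 and 6.62 to 6.79 units at day 14. The bright probes of Fabp7 and Apoe make up most of that sum at day 14, so it does not show a rise of the other glial genes. Leaving out 1 array, the number that rose was 1 without day 14 replicate 1 or 2. Ednrb lost its call without either day 14 array.

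Several imprinted genes of fetal growth fell. Imprinted genes are expressed from 1 parental allele, and many of them set growth before birth and are switched down after it in most tissues. Of 16 measured genes 6 fell and 2 rose (median −0.42), and with centred arrays 1 rose. Cdkn1c, which encodes the cyclin-dependent kinase inhibitor p57, read 19.19, 19.28, 18.34, 18.33 and 18.31 at day 0, 17.81 and 17.57 at day 7, and 15.91 and 15.76 at day 14. It fell 7.24-fold (log2 difference −2.86, SE 0.27, adjusted p = 0.00027), and both day 7 arrays lay between the groups. Igf2, the fetal insulin-like growth factor, read 21.64, 21.15, 21.20, 21.24 and 20.97 at day 0, 20.24 and 20.09 at day 7, and 19.60 and 19.66 at day 14, a 3.05-fold fall (log2 difference −1.61, SE 0.16, adjusted p = 0.00029). Grb10, an adaptor that restrains insulin and IGF signalling, read 19.49, 20.00, 19.81, 19.80 and 19.63 at day 0 and 18.44 and 18.75 at day 14 (log2 difference −1.15, SE 0.18, adjusted p = 0.0021). Day 14 lay below day 0 on every array for these 3 genes, which also passed without day 14 replicate 1 and without replicate 2.

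Dlk1, a Notch-family ligand-like membrane protein, read 15.47, 16.15, 15.26, 15.26 and 15.06 at day 0 and 14.41 and 14.31 at day 14 (log2 difference −1.08, SE 0.26, adjusted p = 0.023). The long non-coding RNA Meg3 (log2 difference −1.31, adjusted p = 0.012), from the same imprinted cluster, and Nnat (log2 difference −1.12, adjusted p = 0.0086) also fell. Mest gave −0.55 (adjusted p = 0.051) and Ndn −0.29 (adjusted p = 0.59). Impact, an imprinted inhibitor of the stress kinase GCN2 that is abundant in neurons, rose and read 16.46, 15.72, 15.97, 16.00 and 15.13 at day 0 and 17.99 and 17.70 at day 14 (log2 difference 1.99, SE 0.28, adjusted p = 0.0014). Dcn, the other member that rose, is the proteoglycan decorin and also stands in the fibroblast list. Against day 0 replicates 1 and 2 alone 6 of the 16 genes fell, and against replicates 3 to 5 alone 7 fell, where 4.19% and 12.4% of all named genes did. The count of those that fell was 3 without day 14 replicate 1 or 2, and that of genes that rose 1 without day 14 replicate 1 or 2.

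Of 15 other measured genes of fetal and progenitor growth 7 fell and 0 rose (median −0.58), namely Mycn, Marcksl1, Sox4, Sox11, Bex1, Mex3b and Dpysl3. Marcksl1, an actin-regulating protein of young neurons, read 19.81, 20.05, 20.11, 19.99 and 20.18 at day 0 and 19.18 and 19.21 at day 14 (log2 difference −0.84, SE 0.14, adjusted p = 0.0032). Sox4, a transcription factor of differentiating neuroblasts, read 16.73, 17.25, 16.65, 16.47 and 17.00 at day 0 and 15.83 and 15.97 at day 14 (log2 difference −0.92, SE 0.22, adjusted p = 0.023), and its relative Sox11 fell by 1.47 (adjusted p = 0.027). Mdk, encoding midkine, gave 0.03 (adjusted p = 0.96), Ezh2 −0.58 (adjusted p = 0.12) and the fetal RNA-binding protein gene Igf2bp1 −1.58 (adjusted p = 0.10). Against day 0 replicates 1 and 2 alone 4 of the 15 fell, where 4.19% of all named genes did. Their number was 4 without day 0 replicate 3, 1 without day 14 replicate 1 and 0 without day 14 replicate 2.

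Connective-tissue genes moved both ways. Of 33 measured genes of fibroblasts and matrix 6 rose and 5 fell (median −0.18), and with centred arrays 3 rose. Mfap2, a microfibril protein of developing tissue, read 17.98, 18.55, 18.23, 17.84 and 18.30 at day 0, 18.06 and 18.18 at day 7, and 16.05 and 16.22 at day 14. It fell 4.13-fold (log2 difference −2.05, SE 0.19, adjusted p = 0.00027), and the day 7 arrays were still at the day 0 level. Tnc, the matrix glycoprotein tenascin C of migrating and growing tissue, read 18.48, 18.94, 19.24, 19.34 and 18.95 at day 0 and 17.28 and 17.57 at day 14 (log2 difference −1.57, SE 0.23, adjusted p = 0.0016), and Ogn (log2 difference −1.54, adjusted p = 0.024), Col14a1 (log2 difference −0.88, adjusted p = 0.018) and Col3a1 (log2 difference −0.66, adjusted p = 0.035) fell too. Col15a1, a basement-membrane collagen, read 15.01, 14.39, 15.29, 15.04 and 15.33 at day 0 and 16.86 and 16.78 at day 14 and rose (log2 difference 1.81, SE 0.24, adjusted p = 0.0011). The matrix metalloprotease Mmp2 (log2 difference 1.52, adjusted p = 0.015), Serpinf1 (log2 difference 1.40, adjusted p = 0.022), Timp2 (log2 difference 0.87, adjusted p = 0.034), Dcn (log2 difference 0.86, adjusted p = 0.013) and Sparc (log2 difference 0.81, adjusted p = 0.0085) rose, and with centred arrays the difference of Sparc was 0.02. The summed level was at most 13.6 units at day 0 and 13.6 to 13.8 units at day 14. The number that rose was 2 without day 14 replicate 1 and 1 without day 14 replicate 2. The number that fell was 3 without day 0 replicate 3 or day 14 replicate 1 and 2 without day 14 replicate 2.

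**Figure D4:**
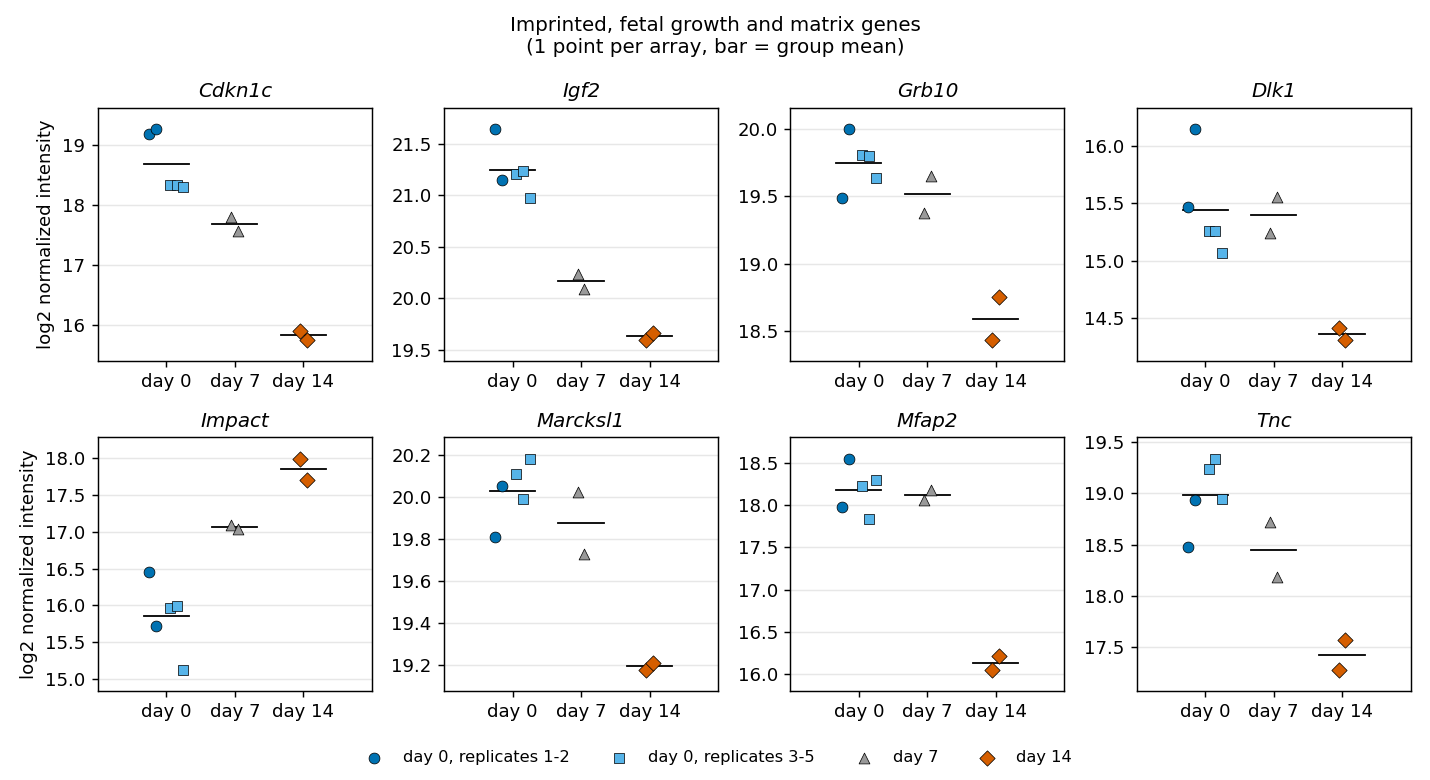
Log2 normalized intensity of 5 imprinted genes, Marcksl1 and the matrix genes Mfap2 and Tnc on each ganglion array, with 1 panel per gene and bars at group means. Impact was higher and the other 7 genes were lower on both day 14 arrays than on any day 0 array, and in Mfap2 the day 7 arrays lie within the day 0 range.

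In the kinetochore and mitotic lists a single gene passed. Of 24 measured kinetochore and mitotic kinesin genes 1 rose and 0 fell (median 0.06), where 7.0% and 4.17% of all named genes did, and of 26 genes of mitotic entry and exit none passed limma's test (median −0.19), while 1 higher and 1 lower gene had an unadjusted p under 0.05. The gene that rose was Zwint, a kinetochore protein that is also expressed in neurons, at 20.43, 19.98, 20.48, 20.55 and 20.43 at day 0 and 21.59 and 21.70 at day 14 (log2 difference 1.27, SE 0.15, adjusted p = 0.00053). With centred arrays its difference was 0.64 (adjusted p = 0.13), and no kinetochore gene rose. Cenpe, the kinetochore kinesin named by the series title, read 11.84, 12.37, 12.94, 12.37 and 12.41 at day 0, 13.51 and 14.00 at day 7, and 12.61 and 12.56 at day 14 (log2 difference 0.20, SE 0.30, adjusted p = 0.72). Its day 14 values lay within the day 0 range, and the day 7 values lay above both. The cyclin gene Ccnb2 gave −1.11 (adjusted p = 0.17), Top2a −0.46 (adjusted p = 0.36) and Plk1 0.25 (adjusted p = 0.60). The counts depended on the day 0 series. Against replicates 1 and 2 alone 3 kinetochore genes rose and 2 fell, and 2 mitotic genes rose and 1 fell. Of all named genes 6.88% rose and 4.19% fell there. Against replicates 3 to 5 alone 1 rose and 6 fell in each list, where 17.5% and 12.4% of all named genes did. Without day 0 replicate 1, 1 kinetochore gene and 3 mitotic genes fell, and without replicate 2, 1 kinetochore gene did.

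Of 32 genes of DNA replication and the G1/S step 3 rose and 0 fell (9.38% higher, near the 7.0% of all named genes, median 0.33). Ccne1, the G1/S cyclin E1, read 15.23, 15.64, 15.07, 15.07 and 14.86 at day 0, 16.71 and 16.87 at day 7, and 16.36 and 16.52 at day 14 (log2 difference 1.27, SE 0.21, adjusted p = 0.0034). E2f1, the transcription factor of S-phase genes, read 12.41, 12.50, 13.05, 12.37 and 13.54 at day 0, 13.67 and 14.43 at day 7, and 14.58 and 14.49 at day 14 (log2 difference 1.76, SE 0.34, adjusted p = 0.0073), and Dut, which keeps uracil out of DNA, rose by 0.67 (adjusted p = 0.020). No day 14 value of these genes fell into the day 0 range, and the day 7 values of Ccne1 were the highest of the ganglia. The measured subunits of the replicative helicase did not pass, with log2 differences from Mcm4 at −0.09 to Mcm7 at 0.58. Leaving out 1 array, the number that rose was 1 without day 14 replicate 1 and 0 without day 14 replicate 2. Of 19 MYC targets and ribosome biogenesis genes 1 fell and 0 rose (median 0.02), the small nucleolar RNP gene Nop58 (log2 difference −1.03, adjusted p = 0.0053), which lost its call without day 14 replicate 2.

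Fat and hormone-responsive genes were higher in part. Of 21 genes of white adipocytes and lipid storage 5 rose and 0 fell (median 0.65). Gpd1, which makes glycerol phosphate for triglycerides, read 15.34, 14.71, 15.37, 15.07 and 15.36 at day 0 and 16.91 and 17.44 at day 14 (log2 difference 2.00, SE 0.27, adjusted p = 0.0011). Pnpla2, the first lipase of stored fat, read 16.58, 15.89, 16.11, 15.99 and 15.95 at day 0 and 17.20 and 17.26 at day 14 (log2 difference 1.12, SE 0.19, adjusted p = 0.0041). Cfd, adipsin of mature adipocytes, rose by 2.50 (adjusted p = 0.023), while Adipoq gave 1.22 (adjusted p = 0.22) and Fabp4 1.19 (adjusted p = 0.16). Plin1 gave −0.67 (adjusted p = 0.39), and over the list 18 of 21 differences were positive, the lowest being −1.37. The summed level was 2.88 to 3.24 units at day 0 and 4.23 to 4.41 units at day 14. Of 23 genes of brown fat and fatty acid oxidation 4 rose and 0 fell (median 0.55), with sums of 1.52 to 2.11 units and 2.60 to 2.73 units. With centred arrays 2 of the 23 rose. Cox8b, a cytochrome oxidase subunit of brown fat and muscle, read 12.38, 11.02, 15.23, 14.67 and 13.09 at day 0 and 16.17 and 16.84 at day 14 (log2 difference 3.23, SE 0.95, adjusted p = 0.049), and the brown fat uncoupling protein gene Ucp1 gave 2.19 (adjusted p = 0.29). Prdm16 gave −0.04 (adjusted p = 0.97) and Fabp5 −0.53 (adjusted p = 0.32), and 18 of the 23 differences were positive. The part of fat adhering to the ganglia was not tested. The number of white fat genes that rose was 2 without day 14 replicate 1 and 1 without day 14 replicate 2, and of brown fat genes 2 without day 0 replicate 3 and 0 without day 14 replicate 1 or 2.

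Of 10 thyroid, glucocorticoid and circadian response genes 3 rose and 0 fell (median 1.06). Hr, a nuclear receptor corepressor that thyroid hormone induces in developing brain, read 10.92, 12.24, 11.05, 10.82 and 10.94 at day 0, 12.37 and 12.82 at day 7, and 14.14 and 14.01 at day 14 (log2 difference 2.88, SE 0.40, adjusted p = 0.0012). Hlf and Dbp are related transcription factors driven by the circadian clock. Dbp read 14.99, 14.86, 14.98, 14.99 and 15.58 at day 0, 15.94 and 16.33 at day 7, and 16.92 and 16.78 at day 14 (log2 difference 1.77, SE 0.22, adjusted p = 0.00056), and Hlf read 10.63, 10.81, 11.60, 11.65 and 10.78 at day 0, 13.30 and 13.64 at day 7, and 13.31 and 15.31 at day 14 (log2 difference 3.22, SE 0.47, adjusted p = 0.0017). All day 7 and day 14 values of these 3 genes exceeded every day 0 value. The glucocorticoid targets Fkbp5 (log2 difference 1.10, adjusted p = 0.14) and Sgk1 (log2 difference −0.19, adjusted p = 0.51) did not pass, nor did Klf9, which responds to thyroid hormone and glucocorticoids (log2 difference 1.97, adjusted p = 0.051). The labels give no hour of harvest.

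**Figure D5:**
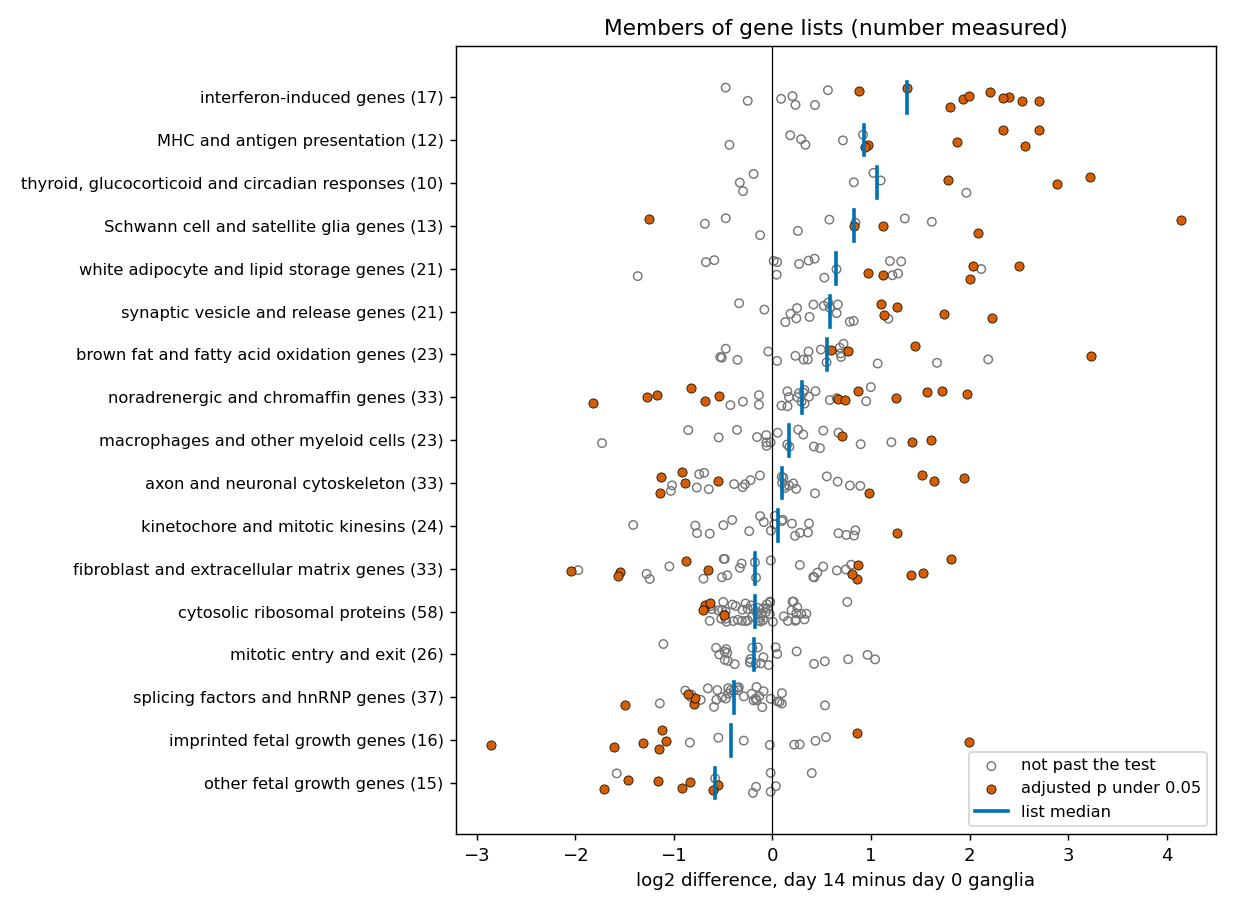
Log2 difference of day 14 minus day 0 for each measured member of 17 gene lists, 1 point per gene, with members past the test filled and a bar at each list's median. The interferon list has the highest median, 1.37, and the list of other fetal growth genes the lowest, −0.58, while the mitotic list holds no filled point.

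Among markers of vessels and neighbouring tissues single members passed. Of 17 endothelial genes 2 rose, the tight-junction protein gene Cldn5 (log2 difference 1.87, adjusted p = 0.025) and Egfl7 (log2 difference 0.94, adjusted p = 0.048). Over the list 15 of 17 differences were positive (median 0.52). The summed level was 0.305 to 0.413 units at day 14. At day 0 it was 0.467 units in replicate 1 and 0.147 to 0.282 units on the other arrays. The number of endothelial genes that rose was 6 without day 0 replicate 1, 1 without day 0 replicate 3, 4 or 5 and 0 without day 14 replicate 1 or 2. None of 9 smooth muscle and pericyte genes passed limma's test (median 0.40), and 2 higher and 1 lower had an unadjusted p under 0.05. None of 15 skeletal muscle genes passed it either (median −0.44), with 2 higher and 3 lower at that level. These counts of 0 moved with the day 0 arrays. Of the smooth muscle genes 2 rose without day 0 replicate 1 and 1 without replicate 2, and 1 fell without replicate 4 or 5. Of the skeletal muscle genes 1 fell without day 0 replicate 1, 2 fell without replicate 4, 3 fell against day 0 replicates 1 and 2 alone, and 1 rose without day 14 replicate 1. With centred arrays 1 gene of each list fell. Of 8 adrenal cortex genes 2 rose, both with day 0 arrays at the floor: Aldh1a1, a retinoic acid-producing enzyme, by at least 3.71 on the log2 scale and Mrap by at least 2.29. Cyp21a1, which defines steroid-producing cortex, did not pass and had the lowest difference of the list (−0.06, adjusted p = 0.94). Over this list 7 of 8 differences were positive (median 0.45), and the part of adrenal tissue was not tested. Of 2 kidney genes the water channel gene Aqp1 rose (log2 difference 2.02, adjusted p = 0.00056), and of 7 cartilage and bone genes Acp5 rose (log2 difference 1.12) and Cnmd fell (log2 difference −1.12). Of 6 erythroid genes 1 rose, Urod (log2 difference 0.71), and the summed level spread from 0.270 to 2.48 units at day 0 and from 0.236 to 0.560 units at day 14. Aqp1 passed without either day 14 array, whereas each of the adrenal, cartilage and erythroid lists lost at least 1 of its calls. With centred arrays Cnmd and Urod did not pass. Of 8 Hox genes 1 rose, Hoxd9, at 11.31, 11.91, 12.06, 11.42 and 12.27 at day 0, 13.91 and 14.22 at day 7, and 14.25 and 14.21 at day 14 (log2 difference 2.43, SE 0.30, adjusted p = 0.00056).

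Hoxc9, another mark of position along the body, read 18.04 and 18.28 in the day 7 ganglia, 9.78 to 12.31 at day 0, and 12.21 and 9.78 at day 14. The labels do not give the level of the body from which a ganglion was taken, and its part in the differences was not tested.

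A few genes of energy supply rose, and a few of protein synthesis and splicing fell. For energy supply and ribosomal proteins the shares that passed were near those of all named genes. Of 46 respiratory chain and ATP synthase genes 5 rose and 0 fell (10.9% higher, against 7.0% of all named genes, median 0.24), among them Atp5h (log2 difference 0.72, adjusted p = 0.0056), whose difference was 0.06 with centred arrays. With centred arrays 1 of the 46 rose. Of 58 cytosolic ribosomal protein genes 4 fell and 0 rose (6.90% lower, against 4.17%, median −0.18), namely Rpl4, Rpl7a, Rpl22 and Rps13, and with centred arrays 11 fell and the median was −0.56. The day 14 arrays lay below every day 0 array for 23 of the 58, where 12.0% of all named genes did. With no scaling the differences of Rpl4 and Rps13 were 0.10 and 0.04. Of 37 splicing factor and hnRNP genes 4 fell and 0 rose (10.8% lower, median −0.39), among them Hnrnpa1 (log2 difference −0.79, adjusted p = 0.022). In these lists the number that passed was 9 without day 0 replicate 1, 2 without day 0 replicate 3, 1 without day 14 replicate 1 and 0 without day 14 replicate 2 for the respiratory chain. It was 1 without day 0 replicate 3 and 0 without day 14 replicate 1 or 2 for ribosomal proteins and 8 without day 0 replicate 1, 1 without day 0 replicate 3 or day 14 replicate 1 and 0 without day 14 replicate 2 for splicing factors.

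Among regulators and stress genes single members passed. Shares that rose ran from 4.17% of chromatin modifiers to 14.3% of heat shock genes, against 7.0% of all named genes. Those that fell made up 8.33% of chromatin modifiers and 10.5% of p53 and apoptosis genes, against 4.17%. Of 24 chromatin modifiers Hdac11 rose (log2 difference 1.21) and Chd4 (log2 difference −1.64) and Kdm5b (log2 difference −0.74) fell. Of 21 heat shock genes 3 rose, Hspb8 (log2 difference 1.54, adjusted p = 0.00079), Hspb1 (log2 difference 1.49, adjusted p = 0.016) and Cryab, and of 22 hypoxia and glycolysis genes 2 rose, Gpi1 (log2 difference 0.96) and Ldhb (log2 difference 1.02), while Vegfa gave 0.30 (adjusted p = 0.70). With centred arrays neither passed, Gpi1 at 0.33 (adjusted p = 0.46) and Ldhb at 0.93 (adjusted p = 0.053). Of 19 p53 and apoptosis genes Gadd45a (log2 difference 1.02) and Phlda3 (log2 difference 0.79) rose and 2 fell, Bbc3 (log2 difference −0.62) among them, and the p53 target Cdkn1a gave 0.46 (adjusted p = 0.48). Of 19 cholesterol synthesis genes 2 rose, Ebp (log2 difference 0.89) among them, and of 21 immediate-early genes Ier3 (log2 difference 0.91) rose. With no scaling the difference of Bbc3 was 0.15. The count of heat shock genes that rose was 6 without day 0 replicate 1, 7 without day 0 replicate 2 and 1 without day 14 replicate 1 or 2. The number of hypoxia and glycolysis genes was 6 without day 0 replicate 1, 4 without day 0 replicate 2, 1 without day 0 replicate 3 or day 14 replicate 1 and 0 without day 14 replicate 2. Without day 0 replicate 1, 3 chromatin genes rose and 6 fell, and 4 p53 genes rose. Without day 0 replicate 3 the numbers of chromatin and cholesterol genes that rose were 0. With centred arrays 1 of the p53 and apoptosis genes rose and 1 fell, and neither Phlda3 nor Bbc3 passed. Without day 14 replicate 2 none of the chromatin, p53, cholesterol and immediate-early genes passed.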

How the data were processed

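Total RNA of ganglia was read on single-colour ABI oligonucleotide arrays, per the labels. The deposited ganglia table holds 12688 probes on 11 arrays as intensity values, and the deposited series table holds unnormalized intensity of the same arrays. In the deposited normalized table all 11 columns carry the same sorted values (median 18933), and each rank holds the highest unnormalized intensity at that rank in 100% of ranks (within 1e-06). For background correction, imaging software and the choice of probes, the labels name no method.

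Log2 was taken of the deposited intensity after a floor at the 1st percentile (878.91, log2 9.78). The 4 groups were fitted to all 11 arrays with limma 3.58.1 in R 4.3.3 (lmFit, eBayes with an intensity trend), and the contrast day 14 minus day 0 was adjusted over 12688 probes (Benjamini-Hochberg), with a threshold of 0.05. A gene took its probe with the highest mean over the 11 arrays. Of the probes, 8344 carried 1 symbol, 150 several and 4184 none, and 10 carried a symbol turned into a number. Of the symbols 5010 were current, 3090 were updated through RefSeq (GRCm38.p6) and 244 kept. Of 487 genes with several probes, 65 passed, 7 of them in every probe and none in opposite directions. Promoter windows came from the RefSeq table of GRCm38.p6.

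The text names the 15 highest and 15 lowest genes that passed, had no array at the floor and no overlap between groups, up to 4 members of each of 37 gene lists by smallest p, and key genes of the study. Members, lists and key genes were chosen with earlier results of these data known. Lists are described by counts and medians, without a test. On simulated data with 200 of 12688 probes changed, 21% of 2-fold and 85% of 4-fold changes were recovered, and 6 unchanged probes were called. The simulated noise was independent between probes and arrays, equal in all groups and without the 2 day 0 series. These figures therefore check the fit and do not measure the error in the real data. Alternatives covered scaling, floor, filter, variance model, day 0 series and each array left out. No depth applies to arrays. Some members that the counts include are not reported here by name.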

Additional observations from a re-analysis of the deposited data

Results flagged for a closer look

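In 13 of the 126 genes chosen by the naming rule, 1 day 0 array lay apart from the other 4 by Dixon's 95% criterion, which chance meets in about 1 group in 20. In 7 of them it was day 0 replicate 1. That array read high in Avil (15.71), Aqp1 (15.71), Coq8a (16.11), Eno2 (16.20) and Tspan8 (19.62) and low in Hand2 (17.63) and Th (20.82). Day 0 replicate 2 lay apart in 3 genes, high in the thyroid hormone-induced corepressor gene Hr (12.24) and low in Zwint (19.98) and in Me1 (18.09), the malic enzyme of lipid synthesis. Day 0 replicate 5 read high in Dbp (15.58) and in the ribosomal protein gene Rpl7a (20.30). Day 0 replicate 4 read high in Scg5 (18.99). The criterion was not applied to the 2 arrays of day 14.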

How the results depend on the processing

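Of 120 named genes that passed, 118 kept their call when the arrays were quantile normalized here to the mean or fitted with a robust variance prior. Other counts were 95 with centred arrays, 76 with no scaling, 91 when all probes of the series table were normalized, 81 with day 0 and day 14 arrays alone, 119 with no floor, 115 with a floor at the 5th percentile, 87 with no intensity trend, 72 against a 1.2-fold minimum, 91 against day 0 replicates 1 and 2 and 120 against replicates 3 to 5. Leaving out a day 0 array kept 93 to 119 of them, and leaving out day 14 replicate 1 or 2 kept 58 and 32. The probes that passed, 1293, became 788 at a minimum of 2-fold, 807 with all probes of the series table, 647 with day 0 and day 14 arrays alone, 5577 with array weights, 3504 against day 0 replicates 3 to 5 and 482 against a 1.2-fold minimum, and 143 to 2020 with 1 array left out (2020 without day 0 replicate 1, 716 without day 0 replicate 3, 404 and 143 without day 14 replicate 1 and 2). The named genes that passed, 871, became 528, 483, 447, 3544, 2333 and 337 in the same order, and 110 to 1325 with 1 array left out. With no scaling 1076 probes rose and 21 fell, with a median over all probes of 0.71, against 706 and 587 with a median of −0.01.

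Signs reversed for Th with centred arrays (−0.15), for Bbc3 (0.15), Phox2a (0.62), Rpl4 (0.10) and Rps13 (0.041) with no scaling, for Cenpe (−0.21) and Hand2 (−0.033) with array weights, for Alk (−0.28) against day 0 replicates 1 and 2, and for Hand2 against replicates 3 to 5 (−0.12). With 1 array left out Hand2 ran from −0.046 (without day 0 replicate 1) to 0.35, Vegfa from −0.16 (without day 14 replicate 1) to 0.76 and Cdkn1a from −0.011 (without day 14 replicate 2) to 0.92. The cause was not tested. No paired analysis was possible because the replicate numbers follow accession order and the labels pair no samples across days. Signal near the floor limits dim genes, whose differences are lower bounds, and 2 day 14 arrays limit every estimate.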

Other observations

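Several genes had arrays at the floor of 9.78, so that their differences are lower bounds, and they fell outside the naming rule. They were chosen after their values were seen. Apod, a lipid carrier of glia and fibroblasts, rose by at least 5.19 on the log2 scale (adjusted p = 0.00056), the carboxylesterase gene Ces3 by at least 4.26 (adjusted p = 0.0050) and the macrophage lectin gene Mgl2 by at least 3.31 (adjusted p = 0.00053). B3gnt5, a glycosyltransferase of glycosphingolipids, fell by at least 2.89 (adjusted p = 0.00033), the nicotinic receptor subunit gene Chrna4 by at least 2.62 (adjusted p = 0.0032) and the binding protein gene Igfbp1 by at least 2.54 (adjusted p = 0.026).

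The alpha-globin gene Hba-a1 separated the day 0 series rather than the days. It read 21.08 and 20.13 in day 0 replicates 1 and 2, 17.63 to 18.66 in replicates 3 to 5, and 17.32 and 18.77 at day 14. S100b, a calcium-binding protein of glia, read 15.93 in day 0 replicate 1 and 10.10 to 12.61 on the other day 0 arrays.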
